A study of Mus musculus with 8 samples.

Results

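The 8 libraries of the series were used to ask which genes changed differently between the first and the second week in the infarcted heart and in culture. The cells were MICFs, cardiac fibroblasts taken from adult mice with myocardial infarction. They carried lentiviruses with tetracycline-inducible MGT (*Mef2c*, *Gata4* and *Tbx5* on 1 construct), *Myocd*, *Sall4* and eGFP, and all 4 groups received doxycycline, in drinking water *in vivo* and in the medium *in vitro*, so the route of induction differed between the settings. *In vivo* cells were injected into the left ventricle of C57BL/6 mice right after coronary ligation, and the hosts received tacrolimus, methylprednisolone and mycophenolate mofetil every day. *In vitro* cells stayed in culture, where the medium for induced cardiomyocytes held SB431542, an inhibitor of the TGF-beta receptor kinase, and baricitinib, a JAK inhibitor. These agents differ between the settings and cannot be told apart from the settings themselves. Cells were sorted for eGFP on days 7 and 14, which gave 4 groups of 2 libraries: *in vivo* at 1 week and 2 weeks and *in vitro* at 1 week and 2 weeks. The study's infarction surgery used male mice 8 weeks old. Whether the libraries of a group came from separate animals or wells is not given in the sources used here, so every p-value measures only the spread between these libraries.

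The measured quantity was a difference of differences on log2(FPKM + 0.1): the change from week 1 to week 2 in the heart minus the same change in culture. It is called the divergence below, in log2 units, and it is negative when culture moved further up, or less far down, than the heart. A gene entered the test when its FPKM reached 0.5 in at least 2 libraries, which left 15708 of 54532 genes. A call needed an absolute difference over 1 and, from limma, an adjusted p (Benjamini and Hochberg) below 0.01. Each called gene was then sorted by whether its heart and its culture time course were themselves called up, down or not called, and a time course that was not called is given with its size.

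In direct cardiac reprogramming, MEF2C, GATA4 and TBX5 are forced on in fibroblasts to switch on genes of the contractile apparatus and to lower the matrix programme. Myocardin is a coactivator of serum response factor and drives smooth and cardiac muscle genes, and SALL4 is a zinc finger protein of stem cells. After infarction the heart wall passes from an inflammatory phase with many macrophages to a scar of crosslinked collagen, while a culture dish holds neither blood flow nor incoming leukocytes.

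The libraries held between 12304242 and 14546904 fragments on genes, and all were of like depth. The defining fibroblast markers were high in every library. Their summed FPKM, over *Col1a1*, *Col1a2*, *Col3a1*, *Dcn*, *Lum*, *Pdgfra*, *Postn* and *Tcf21*, was 12401 to 13231 in the heart at 1 week and 10148 to 11569 at 2 weeks, against 3046 to 3179 and 2080 to 2098 in culture. All 8 macrophage markers were also present in these eGFP+ sorts, with sums between 1487 and 2312 in the heart and between 3910 and 5027 in culture. The 4 lymphocyte markers stayed at a summed FPKM of 2.77 or less. A longer list held 16 T cell, NK and B cell genes. Its sum was 16.6 and 24.7 FPKM in the heart at 1 week and 69.6 and 46.6 at 2 weeks. In culture its sum was 11.1 and 13.7 and then 27.5 and 27.7. The summed cardiomyocyte markers were 105 to 115 in culture at 1 week and 550.1 to 623 at 2 weeks. In the heart they summed to 9.80 to 12.3 and then 16.9 to 22.99. Of those markers, *Pln* and *Myl2* were higher in the heart at both weeks. At 2 weeks *Pln* was at 3.31 and 2.56 FPKM in the heart and 0.105 and 0.08 in culture. *Myl2* was at 0.636 and 0.789 and at 0.0742 and 0.0377. In bulk libraries, fewer cells of a type and less RNA per cell cannot be told apart.

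**Figure D1:**
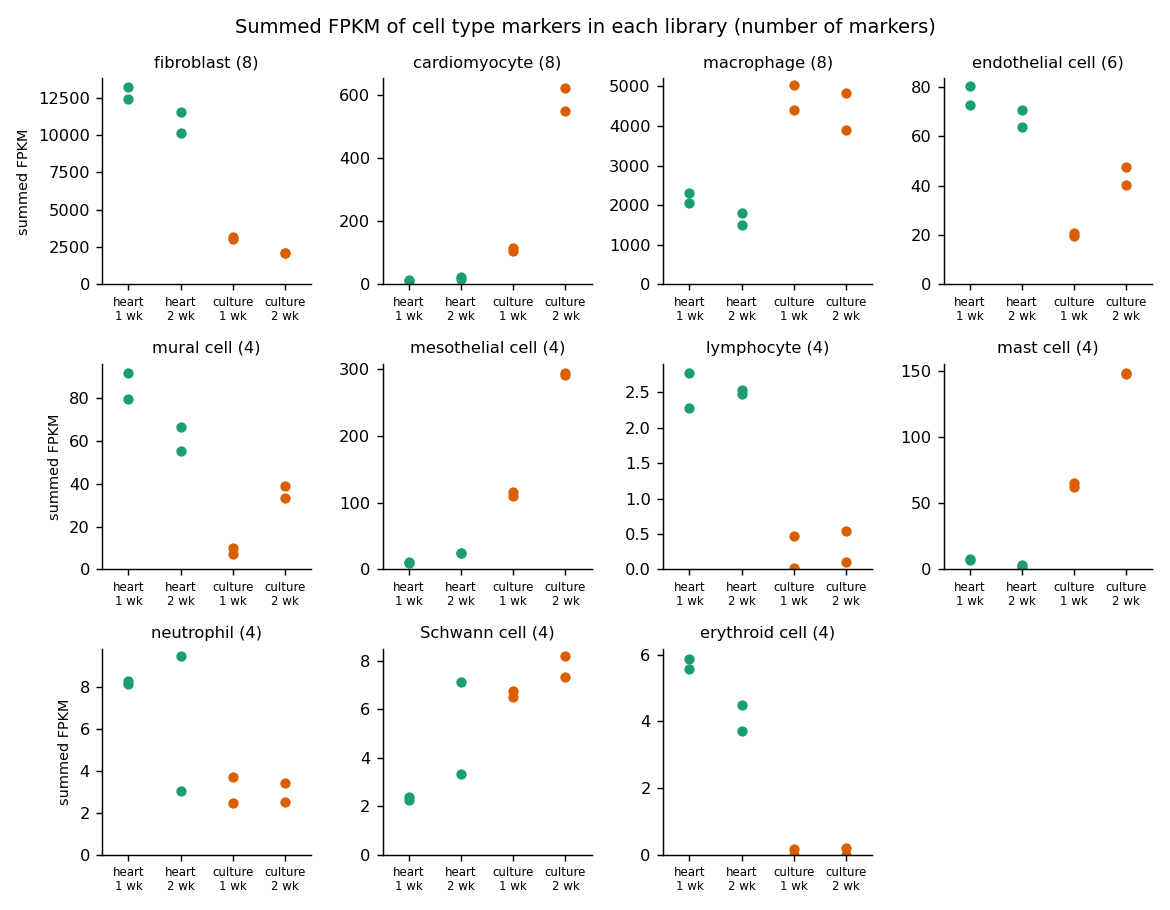
Summed FPKM (vertical axes, each starting at 0) of the markers of 11 cell types in the 8 libraries, with heart libraries in green, culture libraries in orange and 1 point for each library. Cardiomyocyte, mesothelial and mast cell markers are highest in culture at 2 weeks, and fibroblast, mural and endothelial markers are highest in the heart at 1 week.

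Of the 15708 genes tested, 271 were called in the divergence contrast, 90 with a positive divergence (0.573% of all tested) and 181 with a negative one (1.15%). The time courses themselves gave 193 genes up (1.23%) and 149 down (0.949%) in the heart, and 434 up (2.76%) and 165 down (1.05%) in culture. The larger group was made of genes that rose in culture while the heart change was not called, with 114 members. Another 28 fell in culture alone, 29 rose in the heart alone, and 18 fell in the heart alone. Only 4 genes fell in the heart and rose in culture, none did the reverse, and 5 rose in both settings at different rates. The remaining 73 had neither time course called, and in all of them the heart and culture changes had opposite signs.

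**Figure D2:**
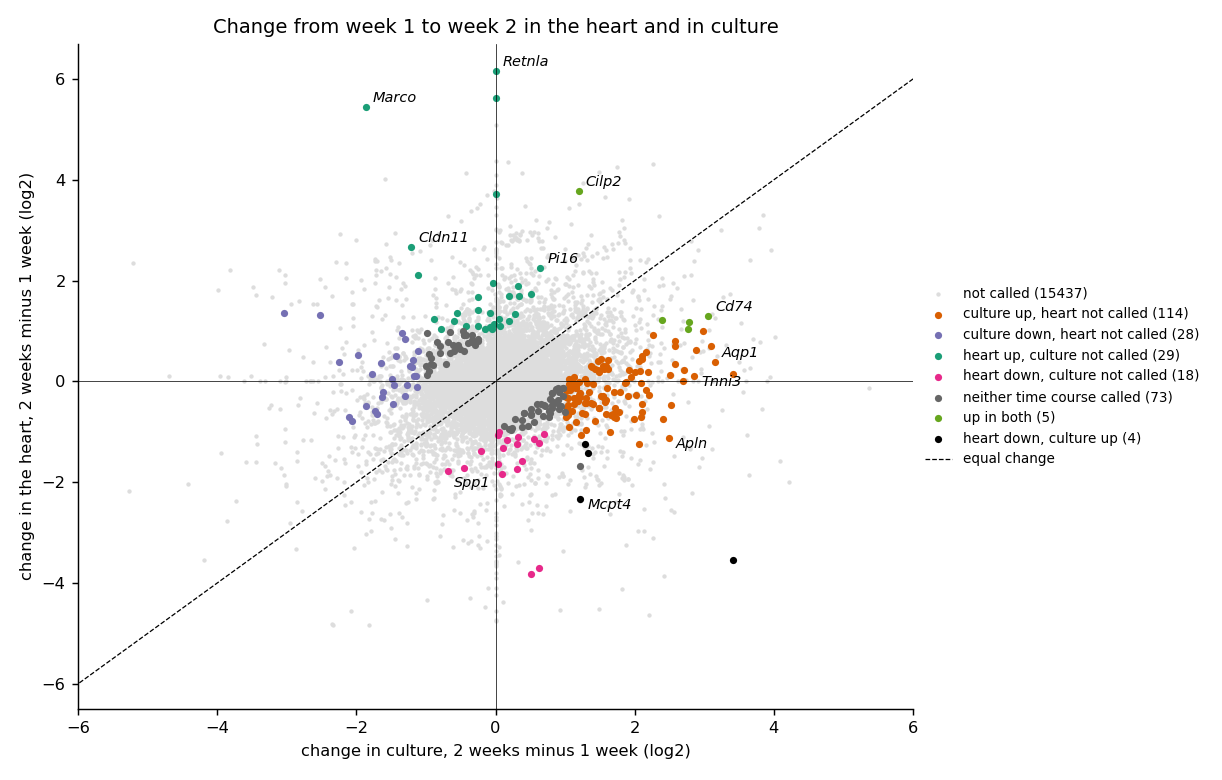
Change from week 1 to week 2 in culture (horizontal axis, log2) and in the heart (vertical axis, log2) for each tested gene, with the 271 called genes coloured by which setting moved and the dashed line marking equal change. The 114 genes that rose in culture, with a heart change not called, lie to the right at heart changes between -1.24 and 1.0003. *Retnla* lies highest at a heart change of 6.17, and *Marco* lies at the upper left at 5.46.

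Over all tested genes the median divergence was -0.0085, with a median change of -0.0033 in the heart and 0.016 in culture. Part of the movement was shared: 64 genes rose in both, which is 33.2% of the genes that rose in the heart and 14.7% of those that rose in culture, and 41 fell in both (27.5% and 24.8%). The 2 time courses share no library. The direction of the divergence was kept by all 271 genes when any 1 library was left out, and 257 to 270 of them kept an absolute value over 1. The genes were chosen in these same libraries for a divergence over 1, so a kept direction is a weak test. Far fewer kept the call, since leaving out any of the 8 libraries cut the count by over 1.5 times: 2 genes stayed called without replicate 1 or 2 of the heart at 1 week, replicate 1 of culture at 1 week or replicate 2 of culture at 2 weeks, and 50 without replicate 2 of the heart at 2 weeks. *Mcpt4* stayed called in every setting tried.

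**Figure D3:**
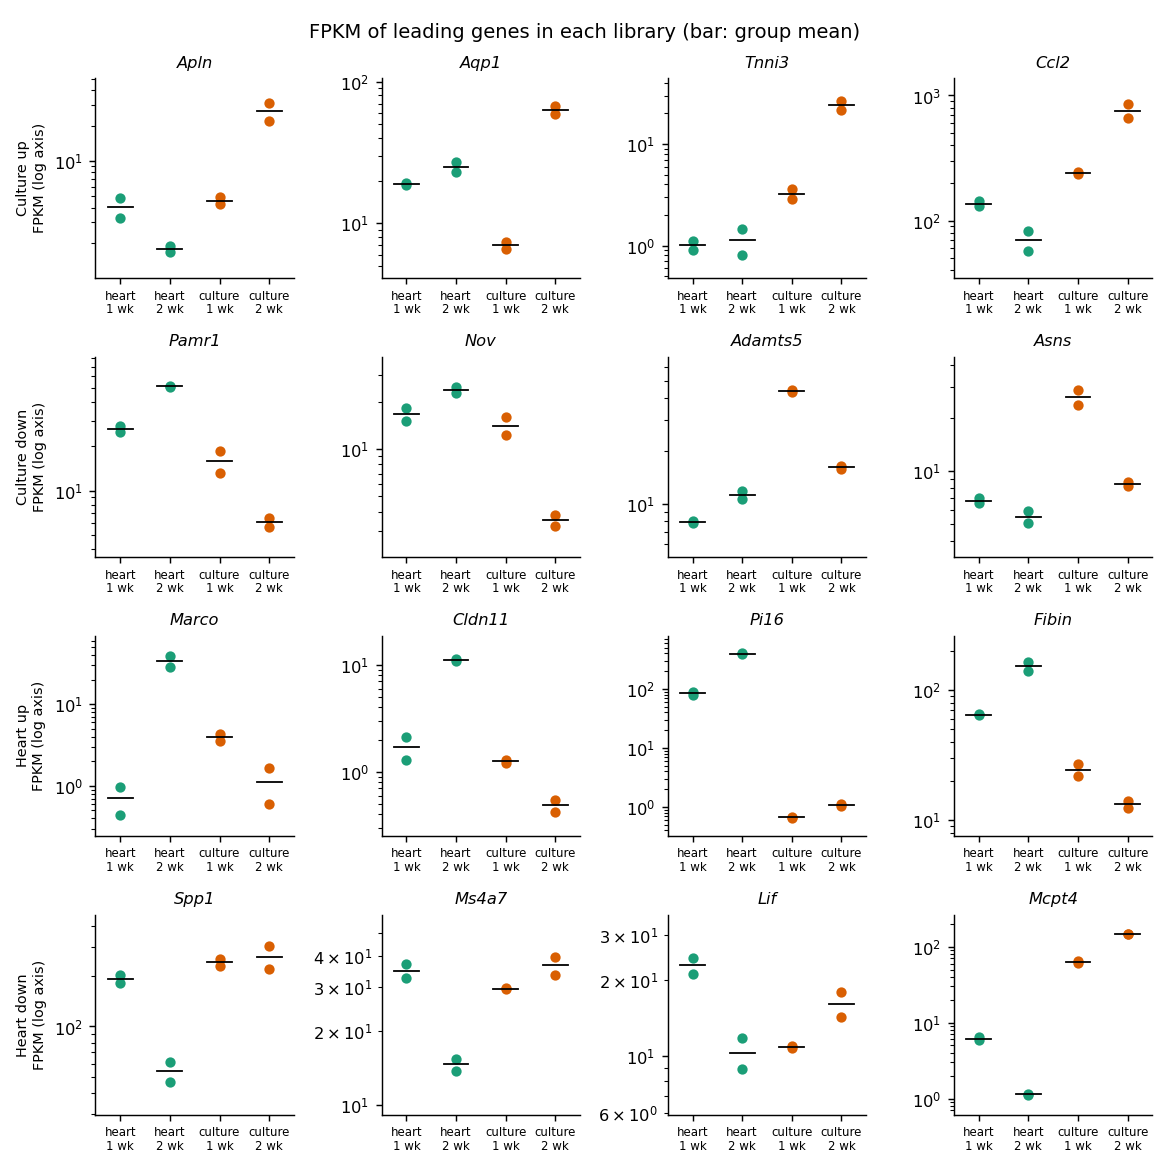
FPKM on a log axis in each library for 4 genes of each pattern, with heart libraries in green, culture libraries in orange, points for libraries and bars for group means. In the top row the culture libraries of week 2 stand above every other library, and in the third row the heart libraries of week 2 do. In the bottom row the heart libraries of week 2 are the lowest for *Spp1*, *Ms4a7* and *Mcpt4*, and *Mcpt4* also rose in culture.

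In the group that rose in culture alone the largest divergence was that of *Apln* (chrX:48025146-48034853, GRCm38), and endothelial, mural and sarcomere genes were among its members. *Apln* encodes apelin, a peptide released by sprouting endothelium. It was at 4.801 and 3.29 FPKM in the heart at 1 week and 1.66 and 1.87 at 2 weeks, and at 4.29 and 4.89 and then 31.3 and 22.1 in culture. The settings overlapped at 1 week and did not at 2 weeks. Its divergence was -3.62 ± 0.31 (SE; adjusted p = 0.0034), made of a culture change of 2.49 and a heart change of -1.13 that was not called. *Esm1*, the endothelial proteoglycan endocan, had 1.79 and 2.53 and then 1.01 and 1.47 FPKM in the heart and 1.36 and 1.34 and then 8.31 and 6.91 in culture, a divergence of -3.16 ± 0.32 (adjusted p = 0.0038). *Aqp1*, a water channel of capillary endothelium and other cells, began lower in culture than in the heart and ended higher. It was at 19.4 and 18.7 FPKM and then 23.2 and 26.95 in the heart against 6.602 and 7.39 and then 67.04 and 59.5 in culture, a divergence of -2.77 ± 0.14 (adjusted p = 9.3e-04).

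Of 26 endothelial genes tested, 7 were called with a negative divergence (26.9%, against 1.15% of all genes) and none with a positive one. Their median change was 0.07 in the heart and 1.24 in culture, where 15 rose (57.7%, against 2.76% of all genes). *Robo4*, a guidance receptor that stabilises vessels, was at 4.87 and 3.605 FPKM in the heart at 1 week and 2.67 and 3.48 at 2 weeks, and went from 0.319 and 0.417 to 2.09 and 1.75 in culture. *Sox18*, a transcription factor of endothelial fate, was at 13.97 and 13.6 and then 16.1 and 14.1 in the heart, and at 0.682 and 0.868 and then 5.31 and 4.403 in culture. Both stayed higher in the heart at 2 weeks, and their divergences were -2.56 ± 0.31 (adjusted p = 0.0063) and -2.38 ± 0.20 (adjusted p = 0.0034). With a pseudocount of 1 that of *Robo4* was -1.45. *Cdh5*, the VE-cadherin of endothelial junctions, went from 4.13 and 4.49 to 15.2 and 11.3 FPKM in culture and was at 29.6 and 26.2 and then 16.7 and 18.9 in the heart (-2.23 ± 0.21, adjusted p = 0.0036). *Esam*, an adhesion molecule of the same junctions, went from 3.42 and 3.25 to 11.04 and 9.46 FPKM in culture and from 12.6 and 11.2 to 9.15 and 9.22 in the heart (-1.96 ± 0.14, adjusted p = 0.0024). *Pecam1*, *Kdr* and *Cldn5*, which code for an adhesion protein, the main VEGF receptor and a tight junction protein, had divergences of -1.72, -1.83 and -1.89. The summed FPKM of 6 endothelial markers, among them *Pecam1*, *Cdh5* and *Kdr*, was 19.8 to 20.7 in culture at 1 week and 40.2 to 47.7 at 2 weeks, against 72.9 to 80.5 and 63.8 to 70.7 in the heart. None of the 6 was at 0 in all libraries, and the part of endothelial cells in this result was not tested.

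Of 7 mural markers, 3 were called with a negative divergence (42.9%, against 1.15% of all genes) and 4 rose in culture (57.1%, against 2.76%). Of the same 7, 2 had a divergence above 0 and 2 had a culture change below 0. Pericytes of the heart carry an ATP-sensitive potassium channel, of which *Abcc9* encodes the regulatory subunit and *Kcnj8* the pore. *Abcc9* was at 4.18 and 3.47 FPKM in the heart at 1 week and 2.76 and 2.69 at 2 weeks, and at 0.698 and 1.28 and then 6.12 and 5.6998 in culture. *Kcnj8* was at 4.09 and 3.25 and then 3.58 and 3.77 in the heart and went from 0.994 and 1.18 to 8.94 and 6.38 in culture. In both genes the culture libraries crossed from below the heart to above it. The divergences were -2.99 ± 0.35 (adjusted p = 0.006) and -2.68 ± 0.27 (adjusted p = 0.0038). *Rgs5*, a regulator of G protein signalling in pericytes, was far higher in the heart throughout, at 78.6 and 66.04 and then 52.6 and 42.1 FPKM, and rose in culture from 4.16 and 5.73 to 22.8 and 19.9 (-2.71 ± 0.25, adjusted p = 0.0036). The summed FPKM of 4 mural markers, *Rgs5*, *Kcnj8*, *Abcc9* and *Cspg4*, was 7.15 to 9.81 in culture at 1 week and 33.2 to 39.1 at 2 weeks. *Cspg4* did not share that rise, at 1.30 and 1.62 and then 1.23 and 1.23 FPKM in culture. Over the 7 markers of the list the sum was 82.2 and 91.8 and then 106 and 96.98 in culture. The part of mural cells was not tested. Of 13 contractile proteins of smooth muscle tested, only *Cnn1*, calponin, was called (-1.004 ± 0.14, adjusted p = 0.0085), and their median divergence was -0.23 against -2.68 for the 7 mural markers.

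The sarcomere list had 5 of 31 tested genes called with a negative divergence (16.1%, against 1.15% of all genes) and none with a positive one. Of the 31, 2 had a divergence above 0. The median change of the list was 0.21 in the heart and 1.44 in culture, where 15 of the 31 rose (48.4%, against 2.76%). *Tnni3* (chr7:4518305-4524229), cardiac troponin I, was at 0.911 and 1.12 FPKM in the heart at 1 week and 0.816 and 1.45 at 2 weeks, and went from 2.897 and 3.602 to 26.5 and 21.9 in culture. The heart libraries of the 2 weeks overlapped and the culture libraries did not. The divergence was -2.76 ± 0.37 (adjusted p = 0.0081), with a heart change of 0.10 whose 95% interval was -0.51 to 0.72. *Csrp3*, muscle LIM protein, was at 7 and 7 fragments and then 4 and 2 in the heart, close to the limit of detection, and at 3.502 and 3.81 and then 11.5 and 12.1 FPKM in culture (-2.33 ± 0.29, adjusted p = 0.0064). *Lmod2*, a leiomodin that lengthens thin filaments, showed another order. It had 37 and 33 fragments in the heart at 1 week and 34 and 36 at 2 weeks, and 2 and 0 and then 41 and 29 in culture, so at 2 weeks the fragments were of like number in both settings. Its fitted divergence of -3.28 ± 0.45 (adjusted p = 0.0087) depends on the pseudocount, since the culture libraries of week 1 were near 0. *Myl4*, the atrial essential light chain, went from 34.99 and 34.3 to 94.002 and 85.9 FPKM in culture and was at 1.84 and 1.77 and then 2.06 and 2.44 in the heart (-1.07 ± 0.13, adjusted p = 0.0064). *Ankrd1*, a stretch-responsive protein of the I-band, was at 26.4 and 26.96 FPKM and then 13.5 and 14.6 in the heart and at 109.7 and 109.8 and then 133 and 126 in culture. Its divergence was -1.16 ± 0.09 (adjusted p = 0.0025), with neither time course called.

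Other well known muscle genes missed the call. *Myh6*, the alpha myosin heavy chain, was at 0.127 and 0.183 FPKM and then 0.0922 and 0.363 in the heart and at 12.9 and 17.4 and then 128 and 108 in culture, a divergence of -2.72 ± 0.55 (adjusted p = 0.028). *Actc1*, cardiac actin, went from 34.7 and 38.03 to 324 and 288 FPKM in culture and was at 2.64 and 4.08 and then 4.11 and 6.66 in the heart (-2.41 ± 0.37, adjusted p = 0.012). For *Tnnt2* and *Ryr2*, cardiac troponin T and the calcium release channel, the divergence was -0.60 ± 0.23 (adjusted p = 0.15) and -0.64 ± 0.30 (adjusted p = 0.22). The 95% intervals were -4.02 to -1.42 for *Myh6*, -3.28 to -1.54 for *Actc1*, -1.15 to -0.05 for *Tnnt2* and -1.35 to 0.06 for *Ryr2*. Among 29 genes of calcium handling and excitation, 2 were called, both negative (6.9%, against 1.15% of all genes). Of the 29, 5 had a divergence above 0. *Kcnj5*, a subunit of the acetylcholine-gated potassium channel, was at 1.35 and 1.11 FPKM and then 0.662 and 0.502 in the heart and at 6.35 and 7.53 and then 17.7 and 16.8 in culture (-2.28 ± 0.23, adjusted p = 0.0038). *Gja1*, connexin 43, overlapped between the settings at 1 week, with 7.94 and 9.09 FPKM in the heart and 8.53 and 8.29 in culture, and reached 18.98 and 18.7 in culture at 2 weeks against 6.37 and 7.12 in the heart (-1.49 ± 0.13, adjusted p = 0.0034). Of 6 skeletal muscle isoforms tested, *Tnnt3*, fast troponin T, was called (-1.99 ± 0.21, adjusted p = 0.0043), with 1.35 and 1.65 and then 5.07 and 5.76 FPKM in culture and 2.75 and 2.33 and then 2.13 and 2.23 in the heart.

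The 5 reprogramming factors did not diverge at the threshold. The table does not separate reads of the transgenes from those of the cells' own genes. Their summed FPKM was 58.1 and 55.9 and then 55.3 and 55.1 in the heart and 83.2 and 91.7 and then 111 and 91.04 in culture, so culture stood higher at both weeks. *Gata4* was at 37.3 and 35.9 FPKM and then 37.99 and 37.5 in the heart and 52.6 and 55.4 and then 73.2 and 64.5 in culture (-0.30 ± 0.10, adjusted p = 0.12). The divergence was 0.15 ± 0.16 for *Mef2c*, 0.04 ± 0.23 for *Tbx5*, -0.27 ± 0.19 for *Myocd* and -0.54 ± 0.30 for *Sall4*, with adjusted p between 0.31 and 0.93. The 95% interval was -0.55 to -0.06 for *Gata4*, -0.23 to 0.53 for *Mef2c* and -1.26 to 0.18 for *Sall4*.

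Of 14 CC chemokines tested, 6 rose in culture (2.76% of all genes did) and 1 rose in the heart (1.23%). Of the 14, 4 were called with a negative divergence (28.6%, against 1.15% of all genes) and none with a positive one. *Ccl2*, *Ccl7* and *Ccl12* are neighbours on chromosome 11, at chr11:82035571-82037453, chr11:82045712-82047525 and chr11:82101845-82103400. *Ccl2* was at 130.2 and 144 FPKM in the heart at 1 week and 82.5 and 56.9 at 2 weeks, and at 236 and 244 and then 663 and 853 in culture. *Ccl7* was at 128 and 129 and then 96.9 and 61.8 in the heart, and at 254 and 255 and then 745 and 955 in culture. Neither setting's weeks overlapped, and the heart changes of -0.997 and -0.73 were not called. The divergences were -2.64 ± 0.26 (adjusted p = 0.0037) and -2.46 ± 0.29 (adjusted p = 0.0061). *Ccl12* started lower in culture, at 10.5 and 9.23 FPKM, and reached 27.7 and 41.9, beside 43.1 and 42.9 and then 32.3 and 24.8 in the heart (-2.38 ± 0.29, adjusted p = 0.0062). *Ccl3*, a chemokine of activated macrophages, was at 95.4 and 136 FPKM and then 80.3 and 58.2 in the heart and at 188 and 212 and then 687 and 913 in culture (-2.72 ± 0.32, adjusted p = 0.0061). *Cxcl5*, which draws neutrophils, diverged by -1.73. In all, 6 of 41 chemokines and cytokines were called with a negative divergence (14.6%, against 1.15% of all genes), none with a positive one. Of the same 41, 2 rose in the heart (4.88%, against 1.23%) and 1 fell there (2.44%, against 0.949%). In culture 8 rose (19.5%, against 2.76%). The median change was -0.33 in the heart and 0.74 in culture.

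Genes of the interferon response gave 1 call in the divergence contrast among 53 tested (1.89%, against 1.15% of all genes). None was called in the heart time course, while 50 had a divergence below 0, with a median change of -0.50 in the heart and 0.04 in culture. The summed FPKM of the list was 1890 and 1330 in the heart at 1 week and 1278 and 1133 at 2 weeks. Replicate 2 of week 1 thus lay close to the libraries of week 2, and the heart fall leans on replicate 1. In culture the sum was 410 and 405 and then 559 and 597. The called gene was *Irf1* (chr11:53770014-53778374), a transcription factor induced by interferon gamma and by NF-kB. It was at 41.1 and 39.6 FPKM in the heart at 1 week and 35.03 and 29.04 at 2 weeks, and went from 27.1 and 29.8 to 67.7 and 72.96 in culture, in the presence of the JAK inhibitor (-1.64 ± 0.14, adjusted p = 0.0034). *Isg15*, a ubiquitin-like antiviral protein, was at 82.4 and 53.6 FPKM and then 49.3 and 32.3 in the heart and 7.13 and 8.86 and then 14.4 and 15.4 in culture (-1.63 ± 0.36, adjusted p = 0.038). *Oas2*, an RNA sensor, was at 13.6 and 6.24 and then 3.44 and 2.38 in the heart. In culture it was at 1 and 0 fragments and then 0 and 0, and its divergence of -1.55 was not called (adjusted p = 0.14).

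The sequence upstream of *Irf1* is shown because it is the only interferon gene called. The 120 bases before its start site (RefSeq, GRCm38.p6, chr11:53769894-53770013, plus strand) hold 1 match to the NF-kB consensus, in capitals, whose first base lies 13 bases before the start. The same consensus was found on either strand in the 120 bases before the start of 4.51% of the 10832 tested genes with a window in the table.
Irf1: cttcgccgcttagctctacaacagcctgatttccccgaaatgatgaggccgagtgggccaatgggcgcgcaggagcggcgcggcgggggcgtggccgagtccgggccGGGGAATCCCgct
RefSeq windows were available for 182 of the 271 called genes (67.2%), too few to compare shares between the patterns, so matches are given as descriptions of single promoters.

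Of 30 macrophage genes, 1 was called with a positive divergence (3.33%, against 0.573% of all genes) and 3 with a negative one (10%, against 1.15%), and 24 of the 30 had a divergence below 0, with a median of -0.73. *F13a1*, coagulation factor XIII A of resident macrophages, was at 11.4 and 10.3 FPKM and then 14.1 and 13.7 in the heart and at 5.56 and 9.03 and then 43.9 and 42.1 in culture, where it rose (-2.24 ± 0.28, adjusted p = 0.0066). Further genes that rose in culture alone included *Bmp2*, a bone morphogenetic protein, at 9.04 and 12.1 and then 40.6 and 45.6 FPKM against 5.45 and 4.62 and then 3.86 and 4.46 in the heart (-2.30 ± 0.23, adjusted p = 0.0037). *Plau*, the urokinase plasminogen activator, went from 59.6 and 79.96 to 141 and 187 FPKM in culture and was at 38.4 and 41.6 and then 20.8 and 17.6 in the heart (-2.29 ± 0.25, adjusted p = 0.0052). *Adamts4*, a protease of aggrecan and versican, was at 20.4 and 17.98 and then 15.2 and 10.6 in the heart and 13.2 and 14.7 and then 29.1 and 30.7 in culture (-1.68 ± 0.23, adjusted p = 0.0089). Keratin 18 and claudin 15, proteins of epithelia and mesothelium, also rose in culture: *Krt18* from 20.8 and 17.4 to 69.4 and 70.98 FPKM and *Cldn15* from 6.91 and 8.45 to 29.5 and 28.7. In the heart *Krt18* was at 2.67 and 3.26 and then 2.898 and 2.96, and *Cldn15* at 1.93 and 2.35 and then 2.54 and 2.47, and the divergences were -1.89 ± 0.17 (adjusted p = 0.0034) and -1.69 ± 0.18 (adjusted p = 0.0047). The mesothelial marker sum rose in both settings. It was at 110.1 to 116 in culture at 1 week and 291 to 294 at 2 weeks. In the heart it was at 9.78 to 11.1 and then 24.1 to 24.3. Of its 4 markers, 3 rose in the heart (1.23% of all genes did) and 3 in culture (2.76%). None of the 4 was called in the divergence contrast. The part of mesothelial cells in the changes of *Krt18* and *Cldn15* was not tested.

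Single genes of the hypoxia and lipid lists were also called with a negative divergence. *Egln3*, a prolyl hydroxylase induced by low oxygen, was at 7.19 and 6.81 FPKM and then 5.96 and 5.48 in the heart and rose from 9.05 and 10.1 to 27.6 and 27.3 in culture (-1.80 ± 0.12, adjusted p = 0.0021). *Slc2a1*, the glucose transporter GLUT1, diverged by -1.33 ± 0.14 (adjusted p = 0.0045) with neither time course called. *Egln3* and *Slc2a1* were the 2 called genes of 24 in the glycolysis and hypoxia list (8.33%, against 1.15% of all genes). That list had a median change of -0.22 in the heart and 0.02 in culture, and 6 of the 24 had a divergence above 0. Of 18 fatty acid and lipid genes tested, 3 were called, all negative (16.7%, against 1.15%), and 7 had a divergence above 0. Their median change was -0.13 in the heart and 0.18 in culture. *Fabp3*, the fatty acid binding protein of heart muscle, was at 27.5 and 21.4 and then 58.2 and 56.5 FPKM in culture and 6.95 and 7.46 and then 5.598 and 3.85 in the heart (-1.86 ± 0.26, adjusted p = 0.0089). *Fabp4*, that of fat cells and capillaries, was higher in the heart, with 18.9 and 16.2 and then 13.3 and 17.004 in the heart and 3.02 and 2.77 and then 7.52 and 7.44 in culture (-1.55 ± 0.19, adjusted p = 0.0062). *Pparg*, the nuclear receptor of fat cells and macrophages, was at 3.85 and 4.17 and then 8.52 and 7.87 in culture and at 2.55 and 2.26 and then 1.35 and 1.53 in the heart (-1.71 ± 0.17, adjusted p = 0.0037). None of 34 oxidative phosphorylation genes was called in any of the 3 contrasts, although 32 had a divergence below 0 with a median of -0.28.

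Among stress and growth genes, *Egr3*, an immediate early transcription factor, was at 16.3 and 17.7 FPKM and then 21.8 and 17.8 in the heart, and at 15.6 and 21.8 and then 78.9 and 78.2 in culture (-1.87 ± 0.23, adjusted p = 0.0064). *Atf3* went from 74.5 and 87.995 to 172 and 182 FPKM in culture and was at 209 and 202 and then 235 and 205 in the heart (-1.03 ± 0.14, adjusted p = 0.0088). *Igfbp5*, which binds insulin-like growth factors, was at 38.7 and 41.5 and then 48.7 and 46.8 in the heart and at 96.8 and 109 and then 318 and 288 in culture (-1.31 ± 0.12, adjusted p = 0.0034). *Dll4*, the Notch ligand of arterial endothelium, was at 3.37 and 3.51 FPKM and then 3.79 and 3.502 in the heart and went from 0.472 and 0.556 to 2.67 and 1.93 in culture (-1.87 ± 0.25, adjusted p = 0.0084), with a divergence of -1.05 that was not called at a pseudocount of 1. *Pdgfb*, which recruits pericytes, rose from 3.95 and 4.51 to 8.58 and 9.03 in culture and was at 12.5 and 10.6 and then 9.07 and 7.53 in the heart (-1.52 ± 0.18, adjusted p = 0.0061). *Clu*, clusterin, and *Cfi*, complement factor I, diverged by -1.45 ± 0.08 (adjusted p = 0.0011) and -1.97 ± 0.23 (adjusted p = 0.0058) with a called rise in culture in both. These genes come from different lists and were set together by their pattern alone.

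The matrix genes *Aspn*, a small proteoglycan, and *Mfap4*, a microfibril protein, rose in culture from a far lower level. *Aspn* was at 428 and 425 FPKM and then 509.99 and 466 in the heart and at 7.75 and 6.34 and then 19.2 and 20.5 in culture. *Mfap4* was at 1029.5 and 1112 and then 1415 and 1489 in the heart and at 29.98 and 31.4 and then 83.8 and 92.5 in culture. The libraries of the settings stayed apart at both weeks, and the divergences were -1.30 and -1.08. Across the 114 genes, 77 were higher in the heart at 1 week and 39 at 2 weeks, a shift whose direction follows from their selection by a negative divergence. The median heart change was -0.17 and the median culture change 1.53. The 95% interval of the heart change included 0 in 49 of the 114.

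In the opposite group were 28 genes that fell in culture while the heart change was not called, among them matricellular proteins, proteases and genes of amino acid supply. Their median change was 0.11 in the heart and -1.48 in culture. At 1 week 18 were higher in the heart and at 2 weeks 23, a shift whose direction follows from their selection by a positive divergence. *Nov*, the matricellular protein CCN3, overlapped at 1 week, at 15.1 and 18.4 FPKM in the heart and 16.01 and 12.4 in culture, and ended at 24.98 and 22.9 in the heart and 3.25 and 3.79 in culture (2.49 ± 0.22, adjusted p = 0.0034). *Pamr1*, a secreted protein with a peptidase domain, was at 25.2 and 27.6 and then 51.8 and 50.9 FPKM in the heart, a change of 0.96 under the size required, and fell from 18.5 and 13.2 to 5.66 and 6.56 in culture (2.31 ± 0.22, adjusted p = 0.0037). *Adamts5*, an aggrecanase, came closer to the heart level, at 44.7 and 43.1 and then 15.9 and 16.6 FPKM in culture, with 7.85 and 8.04 and then 11.9 and 10.8 in the heart (1.93 ± 0.10, adjusted p = 9.3e-04).

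Matrix, protease and growth factor genes were also in this group. *Timp1*, an inhibitor of metalloproteinases, was at 466 and 509.6 FPKM and then 411 and 429 in the heart and fell from 201 and 164 to 56.2 and 62.3 in culture (1.402 ± 0.16, adjusted p = 0.0053). *Timp3* diverged in the same direction (1.26) with neither time course called. *Lox*, which crosslinks collagen, fell in culture from 80.1 and 74.7 to 27.1 and 28.3 FPKM and was at 486 and 553 and then 406 and 351 in the heart (1.02 ± 0.14, adjusted p = 0.008). Of 32 collagen genes only *Col14a1*, a fibril-associated collagen, was called, at 198 and 217 and then 204 and 179 FPKM in the heart and 75.1 and 70.9 and then 33.4 and 33.5 in culture (1.01 ± 0.12, adjusted p = 0.006). That 1 call is 3.12% of the collagens, against 0.573% of all genes. The collagens had a median change of -0.08 in the heart and -0.31 in culture. In culture 7 fell (21.9%, against 1.05% of all genes) and 5 rose (15.6%, against 2.76%). *Col1a1*, the main collagen of scar, had lower values in both settings at 2 weeks, 4132 and 4709 and then 3261 and 2762 FPKM in the heart and 852 and 862 and then 386 and 363 in culture, and its divergence of 0.64 ± 0.16 was not called (adjusted p = 0.053). *Inhba*, a subunit of activin, fell in culture (10.3 and 9.11 to 2.83 and 2.98 FPKM) and was at 17.8 and 15.9 and then 11.1 and 10.4 in the heart (1.06 ± 0.14, adjusted p = 0.0071). *Jag1*, a Notch ligand, fell from 41.7 and 42.1 to 19.5 and 15.2 FPKM in culture, close to the 18.3 and 18.2 and then 18.3 and 16.6 of the heart (1.21 ± 0.16, adjusted p = 0.0085).

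Genes of amino acid supply were another portion of it. Cells short of amino acids or under endoplasmic reticulum stress make more ATF4, which switches on enzymes and carriers for serine, asparagine and other amino acids. A list of such genes was drawn up after the values had been seen, so its counts are a description only: 7 of 30 tested were called with a positive divergence (23.3%, against 0.573% of all genes) and none with a negative one. Its median change was -0.05 in the heart and -0.55 in culture. *Trib3*, a pseudokinase induced by ATF4, was at 13.6 and 10.7 FPKM in culture at 1 week and 3.78 and 3.77 at 2 weeks, and at 2.21 and 2.24 and then 2.63 and 3.196 in the heart. *Asns*, asparagine synthetase, was at 29.02 and 23.6 and then 8.14 and 8.58 in culture and at 6.96 and 6.54 and then 5.86 and 5.03 in the heart. *Phgdh*, which opens serine synthesis, was at 45.96 and 39.9 and then 14.05 and 16.6 in culture and at 10.5 and 13.03 and then 11.7 and 12.7 in the heart. In all 3 the culture libraries of week 1 were the highest of the 8. Their divergences were 2.01 ± 0.20 (adjusted p = 0.0038), 1.33 ± 0.17 (adjusted p = 0.0071) and 1.54 ± 0.19 (adjusted p = 0.0063). *Slc7a5*, a carrier of large neutral amino acids, fell from 27.4 and 27.4 to 10.6 and 11.5 FPKM in culture, and *Slc1a5*, *Atf5* and *Shmt2* were called with neither time course called. The list did not move as one: 10 of the 30 had a divergence below 0. *Atf4* itself was at 114 and 107 FPKM and then 149 and 155 in culture, a change of 0.46, and the culture changes of *Cebpb*, *Chac1* and *Slc3a2* were 0.68, 0.65 and 0.41, none of them called.

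The promoter of *Asns* is printed because its amino acid response element is the textbook site of ATF4 action. In the 120 bases before its start (RefSeq, GRCm38.p6, chr6:7693210-7693329, minus strand) the motif TGATGNAA, searched on both strands, occurs once, in capitals, and its first base lies 23 bases before the start. Of the 10832 windows, 0.914% hold it in the same 120 bases.
Asns: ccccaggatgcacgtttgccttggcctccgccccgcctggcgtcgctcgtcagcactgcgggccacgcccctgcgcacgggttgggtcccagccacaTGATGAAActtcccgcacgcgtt
The match describes this window only and was not linked to binding in these cells.

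Among genes that rose in the heart alone the largest divergence was that of *Marco* (chr1:120474538-120505024), a scavenger receptor of macrophages. It was at 0.976 and 0.439 FPKM at 1 week and 38.8 and 28.6 at 2 weeks in the heart, and at 4.32 and 3.55 and then 0.601 and 1.64 in culture. The heart libraries of week 2 stood above all others, and the culture libraries of week 2 lay below those of week 1. The divergence of 7.32 ± 0.67 (adjusted p = 0.0035) combined a called heart change of 5.46 with a culture change of -1.86 that was not called (adjusted p = 0.03). *Retnla* (chr16:48842551-48844461), a secreted product of alternatively activated macrophages, had 1 and 0 fragments in the heart at 1 week and 62 and 89 at 2 weeks, that is 9.17 and 13.5 FPKM, and was listed at 0 in all 4 culture libraries. Its heart change of 6.17 (adjusted p = 0.0012) rests on 1 fragment at week 1 and depends on the pseudocount. Beside these genes, the summed macrophage markers ran from 2055 to 2312 in the heart at 1 week and from 1487 to 1806 at 2 weeks.

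The promoter of *Retnla* is shown beside that of *Mcpt4*, which fell in the heart and rose in culture, because both genes hold the letters of a TATA box close to their start. The motif TATAAA, searched on both strands and set in capitals, begins 30 bases before the start of *Retnla* (GRCm38.p6, chr16:48842489-48842608, plus strand) and 32 bases before that of *Mcpt4* (chr14:56062311-56062430, minus strand). Of the 10832 windows, 3.08% hold this motif within the 120 bases shown.
Retnla: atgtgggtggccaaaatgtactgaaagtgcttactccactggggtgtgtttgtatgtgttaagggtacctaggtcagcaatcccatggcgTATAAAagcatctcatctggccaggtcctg
Mcpt4: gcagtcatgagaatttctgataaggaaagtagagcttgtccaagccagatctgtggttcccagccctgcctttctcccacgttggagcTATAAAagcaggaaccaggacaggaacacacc
A TATA match in these letters says nothing of the factors that act on either gene.

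*Cldn11*, a claudin of tight junctions, was at 1.28 and 2.13 FPKM and then 10.8 and 11.2 in the heart, and at 1.29 and 1.22 and then 0.425 and 0.551 in culture (3.87 ± 0.34, adjusted p = 0.0034). *Uts2r*, the receptor of the vasoactive peptide urotensin 2, had 10 and 8 fragments in the heart at 1 week and 129 and 133 at 2 weeks, and was listed at 0 in culture throughout (3.73 ± 0.48, adjusted p = 0.0071). *Fibin*, a secreted protein, was at 64.6 and 65.2 and then 142 and 164 FPKM in the heart and 27.02 and 21.9 and then 12.3 and 14.1 in culture (2.11 ± 0.17, adjusted p = 0.0034). In each of these 3 genes the heart libraries of the 2 weeks did not overlap, and no culture library of week 2 was above those of week 1.

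A fibroblast marker, a complement gene and bone morphogenetic proteins also rose in the heart alone. *Pi16*, a peptidase inhibitor that marks fibroblasts of the adventitia, was at 78.9 and 88.5 FPKM at 1 week and 389.8 and 406 at 2 weeks in the heart, and at 0.684 and 0.638 and then 1.05 and 1.13 in culture (1.61 ± 0.11, adjusted p = 0.0024). *C4b*, complement C4, was at 32.9 and 30.6 and then 118 and 117 in the heart and at 0.137 and 0.129 and then 0.203 and 0.181 in culture (1.56 ± 0.13, adjusted p = 0.0034). *C4b* has a near-identical neighbour, C4a, and reads of these copies may be split between them. *Prelp*, a proteoglycan of basement membranes, was at 89.2 and 110.4 FPKM in the heart and 90.5 and 88.6 in culture at 1 week, and at 313 and 333 against 104 and 123 at 2 weeks (1.36 ± 0.17, adjusted p = 0.0064). *Bmp4* and *Bmp6*, bone morphogenetic proteins, rose in the heart, from 8.28 and 7.34 to 18.01 and 19.2 FPKM and from 14.3 and 16.2 to 33.4 and 30.9. In culture *Bmp4* was at 19.1 and 18.4 and then 20.04 and 18.9, and *Bmp6* at 17.9 and 17.4 and then 16.7 and 16.8. Their divergences were 1.19 ± 0.11 (adjusted p = 0.0036) and 1.15 ± 0.11 (adjusted p = 0.0037). *Klf2*, a transcription factor induced by blood flow, went from 109.7 and 113 to 269 and 246 in the heart and was at 69.8 and 62.4 and then 76.4 and 74.5 in culture (1.01 ± 0.11, adjusted p = 0.0043). Of 16 resident fibroblast markers, 2 were called with a positive divergence (12.5%, against 0.573% of all genes) and none with a negative one. The 2 were *Pi16*, which rose in the heart, and *Col14a1*, which fell in culture. The list as a whole did not share their direction. Its divergence was above 0 in 9 of the 16 and below 0 in 7, with a median of 0.07. In the heart 5 of the 16 rose (31.2%, against 1.23% of all genes), and in culture 5 rose (31.2%, against 2.76%). The median change was 0.78 in the heart and 0.88 in culture.

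Genes that fell in the heart alone included *Spp1*, osteopontin, made by activated macrophages and fibroblasts of the infarct. It was at 204 and 181 FPKM at 1 week and 61.3 and 46.6 at 2 weeks in the heart, and at 231 and 252 and then 221 and 302 in culture. The heart libraries of week 2 were the lowest of the 8. The divergence was -1.94 ± 0.25 (adjusted p = 0.0074), with a culture change of 0.10 (95% interval -0.33 to 0.52). *Ms4a7*, a membrane protein of macrophages, followed the same course, 37.3 and 32.6 and then 15.4 and 13.8 FPKM in the heart and 29.4 and 29.9 and then 33.7 and 39.9 in culture (-1.56 ± 0.15, adjusted p = 0.0037). *Lif*, a cytokine of the interleukin 6 family, was at 24.3 and 21.1 and then 11.8 and 8.89 in the heart and 11.02 and 10.8 and then 14.3 and 17.9 in culture, with the heart higher at 1 week and culture at 2 weeks (-1.69 ± 0.22, adjusted p = 0.008). *Cdh3*, P-cadherin, was at 17.3 and 18.9 and then 8.91 and 7.87 in the heart and 12.1 and 13.2 and then 15.7 and 15.9 in culture (-1.42 ± 0.13, adjusted p = 0.0034), and the membrane protein gene *Tmem8* diverged by -1.75 ± 0.20 (adjusted p = 0.0058). *Mmp14*, a membrane-bound collagenase, was at 237 and 228 FPKM and then 127 and 106 in the heart and 94.8 and 98.1 and then 99.4 and 101 in culture (-1.06 ± 0.13, adjusted p = 0.0062). The summed macrophage markers, none of which was called in any contrast, were 2055 to 2312 and then 1487 to 1806 in the heart, and the part of macrophages in these changes was not tested.

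Of 25 genes of the G2 and M phases, 21 fell in the heart (84%, against 0.949% of all genes) and 12 in culture (48%, against 1.05%). Their median changes were -1.55 in the heart and -1.07 in culture. The divergence was below 0 in 22 of the 25, with a median of -0.53. Only *Ube2c*, a ubiquitin conjugase of the anaphase-promoting complex, was called, at 5.26 and 5.403 FPKM and then 1.397 and 1.57 in the heart and 10.9 and 9.91 and then 6.31 and 6.51 in culture (-1.09 ± 0.14, adjusted p = 0.0064). Of 25 S phase genes none diverged at the threshold, and 4 fell in the heart (16%, against 0.949%) and 6 in culture (24%, against 1.05%). *Mcm6*, a replicative helicase subunit, had a divergence of 0.34 ± 0.11 (adjusted p = 0.1) and *Pcna* one of -0.05 ± 0.09 (adjusted p = 0.75).

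The 4 genes with opposed time courses, down in the heart and up in culture, were *Mcpt4*, *Megf6*, *H19* and the small nuclear RNA gene *Gm23264*, the last 2 named after their values were seen. *Gm23264* had 1 and 2 fragments in the heart at 1 week and in culture at 2 weeks and was listed at 0 in the other 4 libraries, so its call rests on 6 fragments. *H19*, a long noncoding RNA of the imprinted Igf2 region, was at 66.5 and 74.1 and then 29.1 and 23.7 FPKM in the heart and 18.8 and 18.9 and then 45.6 and 49.4 in culture (-2.74 ± 0.15, adjusted p = 0.0011). *Mcpt4* (chr14:56059629-56062313) encodes a chymase known from connective tissue mast cells. It was at 6.48 and 5.82 FPKM in the heart at 1 week and 1.12 and 1.14 at 2 weeks, and at 64.1 and 61.5 and then 146 and 146 in culture. No groups overlapped. The heart change was -2.34 (adjusted p = 1.1e-04), the culture change 1.22 (adjusted p = 2.1e-04) and the divergence -3.56 ± 0.10 (adjusted p = 6.5e-05). The mast cell marker sum over *Kit*, Cpa3, *Mcpt4* and Cma1 was 62.6 to 65.6 in culture at 1 week and 148 at 2 weeks. Most of that sum was *Mcpt4* itself: Cpa3, a carboxypeptidase of mast cells, reached at most 0.05 FPKM in culture and the chymase gene Cma1 at most 0.06. *Megf6*, a protein with many EGF repeats, went from 14.98 and 13.7 to 5.98 and 6.0003 FPKM in the heart and from 3.91 and 4.21 to 10.6 and 9.62 in culture, so that the setting with the higher level changed (-2.54 ± 0.12, adjusted p = 9.3e-04).

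Of the 5 genes that rose in both settings, 4 rose more in culture. Of those 4, 3 belong to MHC class II presentation, by which antigen is shown to helper T cells. *Cd74*, the invariant chain, was at 129 and 116 FPKM and then 313 and 289 in the heart and at 7.42 and 8.88 and then 65.2 and 71.7 in culture. *H2-Aa*, a class II alpha chain, was at 34.6 and 35.1 and then 83.3 and 74.7 in the heart and 1.25 and 1.5005 and then 9.298 and 10.8 in culture. *H2-Eb1*, a class II beta chain, was at 59.9 and 57.8 and then 138 and 136 in the heart and 2.36 and 2.601 and then 14.4 and 12.7 in culture. All 3 were higher in the heart at both weeks, with divergences of -1.76 ± 0.15 (adjusted p = 0.0034), -1.60 ± 0.16 (adjusted p = 0.0037) and -1.18 ± 0.12 (adjusted p = 0.0037). Across the 8 class II genes tested, 4 rose in each setting, against 1.23% of all genes in the heart and 2.76% in culture. Of 14 class I genes none rose in either setting and 1 fell in the heart (0.949% of all genes did). With a pseudocount of 1 the divergence of *H2-Aa* was -1.06. *Rasd1*, a Ras-like GTPase induced by dexamethasone, went from 8.06 and 7.39 to 16.4 and 15.7 FPKM in the heart and from 0.968 and 1.04 to 7.85 and 6.94 in culture (-1.71 ± 0.14, adjusted p = 0.0032), with a divergence of -1.10 at a pseudocount of 1.

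*Cilp2*, a protein of cartilage and tendon matrix, was the one that rose more in the heart, from 1.09 and 1.42 to 18.3 and 18.3 FPKM, against 0.512 and 0.388 and then 1.22 and 1.09 in culture (2.57 ± 0.25, adjusted p = 0.0037). Of 27 tendon and cartilage genes, 8 rose in the heart (29.6%, against 1.23% of all genes) and 7 in culture (25.9%, against 2.76%). *Cilp2* alone was called in the divergence contrast (3.7%, against 0.573%). *Comp*, cartilage oligomeric matrix protein, was not called (adjusted p = 0.01), and with culture values near the pseudocount its divergence ran from 0.98 to 2.19 over the settings, 4 of 20 of which called it. It was at 146 and 195 FPKM and then 1036 and 1071 in the heart and 0.197 and 0.181 and then 0.658 and 0.57 in culture (1.34 ± 0.19). *Thbs4*, thrombospondin 4, was at 108 and 137 and then 267 and 282 in the heart and had 1 and 0 fragments and then 20 and 13 in culture (-0.90 ± 0.26, adjusted p = 0.08). No direction is read from *Thbs4*, since its divergence ran from -3.24 with a pseudocount of 0.01 to 0.73 with one of 1.

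Among the 73 genes with neither time course called, smaller changes of opposite sign added up to a divergence over 1, as the thresholds nearly require. *Wisp2*, the matricellular protein CCN5, was at 493 and 555 FPKM at 1 week and 1012 and 1045 at 2 weeks in the heart, and at 284 and 243 and then 151 and 186 in culture (1.62 ± 0.18, adjusted p = 0.0049). Its heart change was 0.98 and its culture change -0.65. *Kcnt2*, a sodium-activated potassium channel, was at 3.69 and 4.28 FPKM in the heart and 4.61 and 4.21 in culture at 1 week, and at 7.18 and 6.66 and 2.28 and 2.58 at 2 weeks (1.62 ± 0.17, adjusted p = 0.0041). *Sema7a*, a membrane-anchored semaphorin, went the other way, from 19.04 and 21.3 to 13.1 and 13.3 in the heart and from 1.38 and 1.62 to 3.31 and 2.88 in culture (-1.60 ± 0.16, adjusted p = 0.004). *Frzb*, a secreted Wnt antagonist, was at 122 and 144 and then 250.2 and 252 in the heart and 38.7 and 36.9 and then 28.5 and 27.8 in culture (1.35 ± 0.12, adjusted p = 0.0034), and *Dkk2*, another, was at 3.07 and 2.84 and then 0.956 and 0.758 in the heart and 0.193 and 0.398 and then 0.8196 and 0.754 in culture (-2.90 ± 0.41, adjusted p = 0.0093), or -1.56 with a pseudocount of 1. *Angpt1*, the ligand of the TIE2 receptor, was at 6.25 and 6.18 and then 9.23 and 9.24 in the heart and 6.49 and 5.84 and then 3.098 and 3.94 in culture (1.36 ± 0.17, adjusted p = 0.0068). *Mvk*, mevalonate kinase, was the only one of 20 cholesterol synthesis genes called (1.25 ± 0.17, adjusted p = 0.0089), although 18 of the 20 had a divergence above 0, with a median change of 0.28 in the heart and -0.34 in culture.

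**Figure D4:**
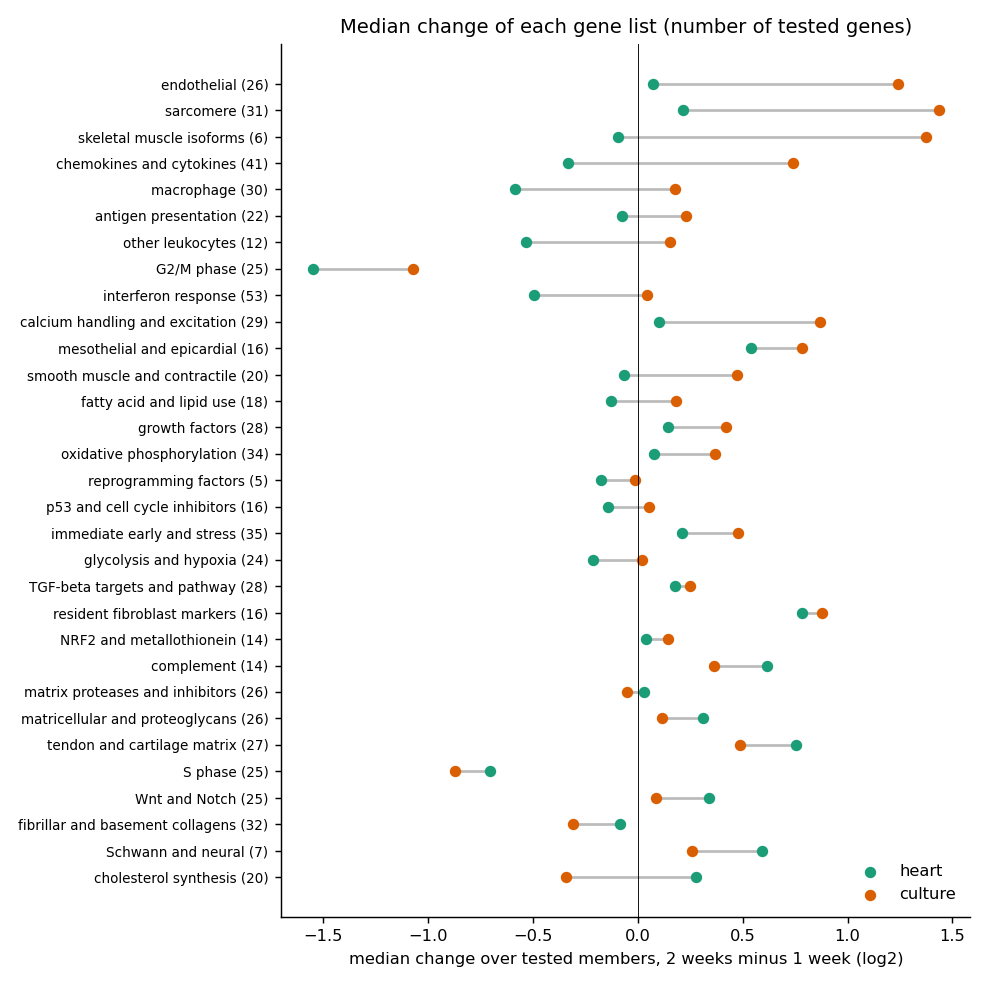
Median change from week 1 to week 2 (log2) over the tested members of 31 gene lists in the heart (green) and in culture (orange), ordered by median divergence, with the number of tested genes in brackets. The widest distances are in the endothelial, sarcomere and skeletal muscle lists, and both cell cycle lists lie below 0 in both settings.

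Lists without any divergent gene covered the p53 axis, NRF2 targets and metallothioneins, oxidative phosphorylation, Schwann cell and neural genes, S phase and the reprogramming factors. *Mt1*, metallothionein 1, was at 104 and 99.7 FPKM and then 137 and 129 in the heart and at 216 and 198 and then 456 and 539 in culture, with a divergence of -0.88 ± 0.13 (adjusted p = 0.011). *Btg2*, an antiproliferative target of p53, had a divergence of -0.75 ± 0.27 (adjusted p = 0.13) and *Phlda3* one of 0.37 ± 0.11 (adjusted p = 0.075). *Cox8a* and *Atp5b*, of the respiratory chain and the ATP synthase, had -0.53 ± 0.13 (adjusted p = 0.051) and -0.09 ± 0.10 (adjusted p = 0.59). *Prdx1*, a peroxidase, had -0.37 ± 0.14 (adjusted p = 0.15). *Egr2* and *Cnp*, listed as Schwann cell genes and also expressed in other cells, had -0.46 ± 0.17 (adjusted p = 0.15) and 0.11 ± 0.13 (adjusted p = 0.64).

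The gap between the settings, heart minus culture, widened for some of the 271 genes and narrowed for others. The gap at 2 weeks minus the gap at 1 week is the divergence itself. The direction in which the counts and medians below shift therefore follows from the selection and is no further result. Among the 181 with a negative divergence, 121 were higher in the heart at 1 week and 55 at 2 weeks, and the gap widened in 60, narrowed in 55 and changed sign in 66. Among the 90 with a positive divergence, 49 were higher in the heart at 1 week and 78 at 2 weeks, and the gap widened in 49, narrowed in 12 and changed sign in 29. In the class that rose in culture alone, the median gap went from 0.98 at 1 week to -0.76 at 2 weeks. In the class that rose in the heart alone it went from 0.15 to 1.84, and in the class that fell in culture alone from 0.75 to 2.15.

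**Figure D5:**
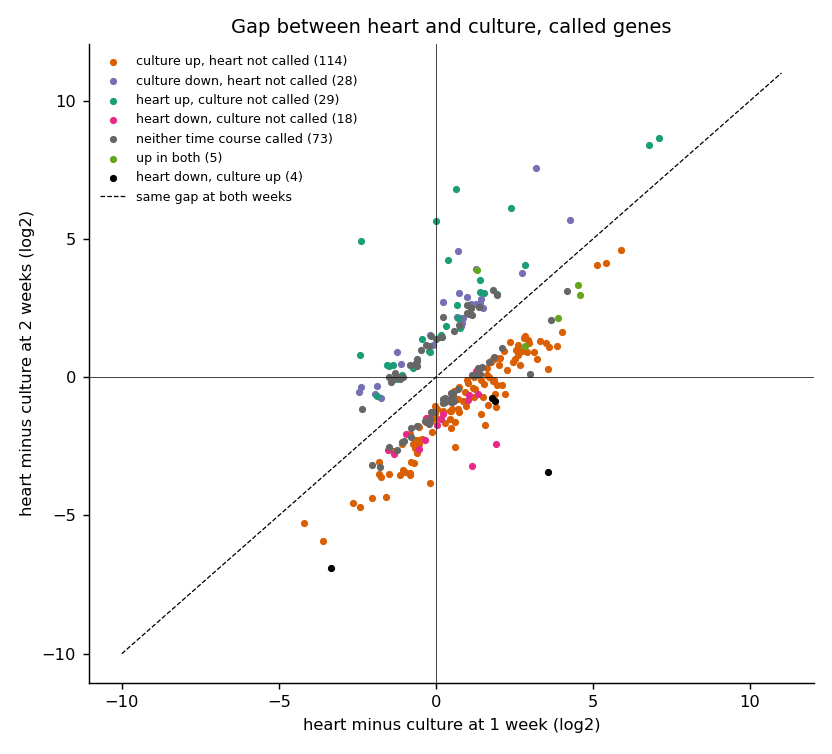
Heart minus culture difference (log2) at 1 week (horizontal axis) and 2 weeks (vertical axis) for the 271 called genes, coloured by pattern, with the dashed line marking an unchanged gap. Genes that rose in culture alone lie below the line, as their negative divergence requires, on both sides of 0, and *Pi16* and *C4b* are the 2 points at the upper right.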

How the data were processed

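RNA of eGFP+ sorted cells was measured in 8 libraries, 2 in each of 4 groups, by mRNA sequencing. The submitters' processing notes name CASAVA, HISAT2 2.0.5 and mm10. The authors deposited FPKM, fragments scaled to gene length and library size, for 54532 genes, and how fragments were counted, and with which strand setting, is not given in the sources used here. FPKM times gene length gave whole fragments for 100% of values within 0.02. The library size behind the deposited FPKM was 0.863 to 0.915 of the fragments on genes *in vivo* and 1.09 to 1.15 *in vitro*, so the settings were scaled differently. All columns of values were assigned to a sample by name.

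Values were analysed as log2(FPKM + 0.1), so changes of low genes are understated, with limma 3.58.1 in R 4.3.3 (group means, moderated with a trend, Benjamini-Hochberg adjustment over 15708 genes). Tables and plots were made with Python 3.11.15, pandas 2.3.3, numpy 2.4.6 and matplotlib 3.10.9, and the fit was tested on simulated data. Coordinates are those of the deposited table. Of 798 genes of 31 lists, 722 passed the filter. The gene lists and the members described were chosen with earlier results of these data known.

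Named genes were the 5 protein-coding genes with the largest divergence in each pattern with 1 setting called, the 3 largest in each other pattern (mean FPKM of at least 5 in the highest group and no overlap of the weeks in a called setting), up to 4 called members of each list or the 2 most abundant where none was called, the 5 reprogramming factors and 15 genes known from earlier work on these data. Some genes that this rule names are not reported here. *Aspn*, *Mfap4*, *Myl4*, *Pecam1*, *Kdr*, *Cldn5*, *Cxcl5*, *Timp3*, *Lox*, *Mmp14*, *Klf2*, *Phgdh*, *Slc7a5*, *Slc1a5*, *Atf5*, *Shmt2*, *H19* and *Gm23264* were added after their values were seen, as were the amino acid list and the 4 promoters printed. Alternatives covered the pseudocount, filter, scaling, gene set, replicate block, variance trend, library weights, voom, threshold and each library left out.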

Additional observations from a re-analysis of the deposited data

Results flagged for a closer look

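The contrast itself tests whether the change from week 1 to week 2 differed between the heart and culture, so every gene called in it stands out for that reason: 90 genes with a positive divergence and 181 with a negative one, by limma at an adjusted p under 0.01 and an absolute difference over 1. The named genes among them follow with the heart change minus the culture change in log2 units, grouped by list or role, and no explanation was weighed. Most of these calls were lost when 1 library was left out, while the direction was kept, as the selection of these genes favours.

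Among vascular genes the divergence was -3.62 for *Apln*, -3.16 for *Esm1*, -2.77 for *Aqp1*, -2.56 for *Robo4*, -2.38 for *Sox18*, -2.23 for *Cdh5*, -1.96 for *Esam*, -2.99 for *Abcc9*, -2.68 for *Kcnj8*, -2.71 for *Rgs5*, -1 for *Cnn1*, -1.87 for *Dll4*, -1.52 for *Pdgfb* and 1.36 for *Angpt1*. Among muscle genes it was -2.76 for *Tnni3*, -3.28 for *Lmod2*, -2.33 for *Csrp3*, -1.16 for *Ankrd1*, -2.28 for *Kcnj5*, -1.49 for *Gja1* and -1.99 for *Tnnt3*. Chemokines, cytokines and the interferon gene had values of -2.64 for *Ccl2*, -2.72 for *Ccl3*, -2.46 for *Ccl7*, -2.38 for *Ccl12*, -1.69 for *Lif* and -1.64 for *Irf1*. Macrophage, chymase and antigen presentation genes had values of 7.32 for *Marco*, 6.17 for *Retnla*, -2.24 for *F13a1*, -1.94 for *Spp1*, -1.56 for *Ms4a7*, -3.56 for *Mcpt4*, -1.76 for *Cd74*, -1.6 for *H2-Aa* and -1.18 for *H2-Eb1*.

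Among matrix and protease genes the values were 2.49 for *Nov*, 2.31 for *Pamr1*, 1.93 for *Adamts5*, -1.68 for *Adamts4*, -2.29 for *Plau*, 1.4 for *Timp1*, 1.01 for *Col14a1*, 1.36 for *Prelp*, 1.61 for *Pi16*, 1.62 for *Wisp2*, 2.57 for *Cilp2*, 2.11 for *Fibin* and -2.54 for *Megf6*. For ligands, receptors and their antagonists they were -2.3 for *Bmp2*, 1.19 for *Bmp4*, 1.15 for *Bmp6*, 1.06 for *Inhba*, -1.31 for *Igfbp5*, 1.21 for *Jag1*, 1.35 for *Frzb*, -2.9 for *Dkk2*, 3.73 for *Uts2r* and -1.6 for *Sema7a*. For complement genes and clusterin they were 1.56 for *C4b*, -1.97 for *Cfi* and -1.45 for *Clu*. For stress, cell cycle and signalling genes they were 2.01 for *Trib3*, 1.33 for *Asns*, -1.03 for *Atf3*, -1.87 for *Egr3*, -1.09 for *Ube2c* and -1.71 for *Rasd1*. For metabolic genes they were -1.8 for *Egln3*, -1.33 for *Slc2a1*, -1.86 for *Fabp3*, -1.55 for *Fabp4*, -1.71 for *Pparg* and 1.25 for *Mvk*. For epithelial and other membrane genes they were -1.89 for *Krt18*, -1.69 for *Cldn15*, 3.87 for *Cldn11*, -1.42 for *Cdh3*, 1.62 for *Kcnt2* and -1.75 for *Tmem8*.

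Of the values listed here, the 2 largest in size, those of *Marco* and *Retnla*, have few fragments in the heart at 1 week. With a pseudocount of 1 in place of 0.1 the divergence moved by over 1.5 times for *Retnla*, *Uts2r*, *Lmod2*, *Robo4*, *Dll4*, *Dkk2*, *H2-Aa* and *Rasd1*.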

How the results depend on the processing

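All 271 divergent genes kept their direction in every setting in which they were tested, a weak test because they were chosen in these same libraries. The counts of calls moved, and the cause was not tested. For genes with a positive and a negative divergence (90 and 181), the counts were 27 and 45 without a filter on low values, 146 and 317 with protein-coding genes only, 32 and 39 without a variance trend, 143 and 330 with limma voom on recovered fragments, and 216 and 461 at an adjusted p under 0.05. Without 1 library they ran from 1 to 37 and from 1 to 49. The replicate numbers did not pair the libraries (correlations of -0.0477 to -0.0107 over 6 pairs of groups). With a replicate block the counts were 11 and 16, and 1 and 1 with the replicate block within each setting.

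In the heart time course (193 up, 149 down), protein-coding genes gave 310 up, voom 302 up, an adjusted p under 0.05 gave 406 and 321, a pseudocount of 1 gave 82 down, the replicate block 99 down, and the replicate block within each setting 92 and 66. Without 1 library the counts ran from 10 to 133 and from 1 to 103. In the culture time course (434 up, 165 down), the replicate block within each setting gave 249 and 80, an adjusted p under 0.05 gave 669 and 334, and the counts of genes down were 81 with a pseudocount of 1, 109 without a filter and 273 with voom. Without 1 library they ran from 154 to 400 and from 44 to 156.

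Genes that rose in culture alone (114) numbered 177 with protein-coding genes and 177 with voom, and 0 to 32 without 1 library. Genes that fell in culture alone (28) numbered 49 with voom and 1 to 4 without 1 library. Genes that rose in the heart alone (29) numbered 49 with a pseudocount of 1, 46 with protein-coding genes, 49 when sorted by the larger change, and 0 to 25 without 1 library. Genes that fell in the heart alone (18) numbered 42 with protein-coding genes, 45 with voom, 37 when sorted by the larger change, and 0 to 7 without 1 library. In the 100 bases before the start, 2.82% of windows held the TATA box, 0.692% the amino acid response element and 3.72% the NF-kB site, against 7.63%, 2.40% and 10.3% in 300 bases.

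Named genes kept their side of the threshold in 1195 comparisons, lost the call in 910 and gained it in 12. Among named genes that were not called, *Thbs4*, *Atp5b*, *Pcna* and *Tbx5* turned sign in at least 1 setting. In simulated data of this depth, 10 of 67 genes with a divergence of 1.5 were recovered, 37 of 65 at 2 and 61 of 68 at 3. The simulation gave all genes and groups 1 fixed spread beyond counting noise. In the real libraries the median log2 difference between replicates ran from 0.136 in culture at 2 weeks to 0.168 in the heart at 2 weeks. The shares recovered therefore hold for the simulated spread, under which divergences smaller than these were often missed, and need not hold for these data.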
